A study of Mus musculus with 6 samples.

Results

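Cells that divide transcribe a common set of genes for building the spindle, holding and separating chromosomes, and guarding that separation. The genes described here are 38 such mitosis and spindle checkpoint genes, taken as a list of gene symbols by their textbook roles and matched to Ensembl mouse gene IDs. The list was chosen with earlier results of these data known. All 38 symbols matched 1 gene ID each among the 47729 genes counted, and all 38 were among the 18174 genes with enough counts to test. They were measured by RNA sequencing in thymus DN1a/b cells, an early stage of thymocyte development before commitment to the T lineage, sorted by FACS from C57BL/6 mice. The first group, RBPJ 6 days induced, came from mice that began without RBPJ, the partner that brings activated Notch to its target genes on DNA. Its expression was then switched on by doxycycline for 6 days, as an intraperitoneal injection at 2 mg/ml followed by drinking water at 1 mg/ml. The second group, RBPJ uninduced, came from mice lacking RBPJ, and the third, Control, from mice that kept RBPJ throughout. Each group has 2 libraries, named below as induced, uninduced and Control libraries with their replicate numbers. The labels state neither the alleles nor the promoter that drives the induced RBPJ, and they give no age or sex. They also do not say whether uninduced or Control mice drank doxycycline, so RBPJ and the drug itself cannot be told apart wherever induced libraries enter a comparison.

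Entry into mitosis is driven by CDK1 with its A and B cyclins and is reinforced by the kinases PLK1 and Aurora A. Chromosomes attach to spindle microtubules through kinetochores built on centromeric chromatin that carries the histone variant CENP-A. Until every kinetochore is attached, the spindle checkpoint proteins BUB1, BUBR1, MAD2 and MPS1 keep CDC20 from activating the anaphase promoting complex. Afterwards the central spindle and the contractile ring divide the cell. Transcripts of these genes are low in resting cells and accumulate in G2 and mitosis. That timing is known to depend on the MuvB complexes with B-MYB and FOXM1, which act through a short promoter element, TTTGAA, and on the factor NF-Y, which binds CCAAT boxes. DN1 thymocytes are a dividing population, and Notch signals in the thymus are known for directing their fate.

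Promoter sequences are shown because this element and the CCAAT box are what mitotic promoters are known to share. RefSeq promoters of GRCm38.p6, the build called mm10, were given for 29 of the 38 members. TTTGAA, read on either strand as TTTGAA or TTCAAA, lay between 100 bases before and 50 bases after the annotated start in 21 of the 29 (72.4%), against 8.08% of 27025 mouse promoters. CCAAT, read on either strand as CCAAT or ATTGG, lay in the same window in 19 of the 29 (65.5%), against 23.96% of all promoters. Both motifs were present in 16 of the 29 (55.2%), against 1.92% of all promoters. Over the whole window from 250 bases before to 50 bases after the start, both were present in 65.5% of members and 7.12% of all promoters. TTTAAA, which differs from the element by a base, was present in that whole window in 31.0% of members and 13.2% of all promoters. TTTGAA and TTTAAA matches cannot overlap each other, whereas a CCAAT match can share end bases with them or with another CCAAT match. A match describes letters only and does not show that a factor bound there. The stretches below run from 150 bases before to 30 bases after the start, 5′ to 3′ on the gene's strand, and capitals mark matches of these 3 motifs on either strand. They are the 8 members with a RefSeq promoter that were higher in uninduced than in Control libraries by the test described below, followed by Kif23, the 1 member with the opposite direction. Their places are chr7:135716350-135716529 on the minus strand for Mki67, chr11:40733408-40733587 on the minus strand for Hmmr, chr5:30666736-30666915 on the plus strand for Cenpa and chr9:22389177-22389356 on the minus strand for Anln. Those of the others are chr3:135212413-135212592 on the plus strand for Cenpe, chr11:99024160-99024339 on the minus strand for Top2a, chr2:118598061-118598240 on the plus strand for Bub1b, chr7:122159285-122159464 on the plus strand for Plk1 and chr9:61946770-61946949 on the minus strand for Kif23. 
Mki67: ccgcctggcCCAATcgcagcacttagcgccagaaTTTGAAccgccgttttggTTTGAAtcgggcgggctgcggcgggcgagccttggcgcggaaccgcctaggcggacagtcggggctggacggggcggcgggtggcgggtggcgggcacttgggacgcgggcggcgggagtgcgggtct
Hmmr: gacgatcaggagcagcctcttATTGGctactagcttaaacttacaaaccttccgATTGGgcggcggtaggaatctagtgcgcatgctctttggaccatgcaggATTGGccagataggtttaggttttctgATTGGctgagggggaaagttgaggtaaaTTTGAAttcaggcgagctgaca
Cenpa: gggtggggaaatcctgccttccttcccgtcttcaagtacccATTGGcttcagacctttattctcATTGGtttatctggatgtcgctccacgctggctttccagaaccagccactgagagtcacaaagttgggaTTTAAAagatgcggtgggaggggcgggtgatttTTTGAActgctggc
Anln: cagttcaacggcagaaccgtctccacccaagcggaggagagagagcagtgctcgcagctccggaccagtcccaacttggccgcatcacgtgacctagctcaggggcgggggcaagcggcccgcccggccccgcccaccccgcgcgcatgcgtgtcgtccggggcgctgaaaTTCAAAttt
Cenpe: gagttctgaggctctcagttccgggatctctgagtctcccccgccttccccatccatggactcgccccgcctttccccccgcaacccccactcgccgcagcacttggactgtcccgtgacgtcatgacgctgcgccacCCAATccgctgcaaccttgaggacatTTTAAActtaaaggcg
Top2a: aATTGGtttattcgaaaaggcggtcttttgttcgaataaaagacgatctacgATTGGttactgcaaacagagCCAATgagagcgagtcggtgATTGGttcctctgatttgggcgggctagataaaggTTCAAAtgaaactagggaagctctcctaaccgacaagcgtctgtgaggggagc
Bub1b: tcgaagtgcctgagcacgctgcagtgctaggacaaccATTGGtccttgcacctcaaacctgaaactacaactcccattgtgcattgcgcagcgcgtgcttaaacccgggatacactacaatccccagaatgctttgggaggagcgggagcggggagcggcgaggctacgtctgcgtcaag
Plk1: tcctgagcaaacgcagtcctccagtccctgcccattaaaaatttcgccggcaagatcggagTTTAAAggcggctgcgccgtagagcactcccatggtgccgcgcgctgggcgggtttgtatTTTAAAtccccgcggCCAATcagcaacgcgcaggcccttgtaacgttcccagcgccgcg
Kif23: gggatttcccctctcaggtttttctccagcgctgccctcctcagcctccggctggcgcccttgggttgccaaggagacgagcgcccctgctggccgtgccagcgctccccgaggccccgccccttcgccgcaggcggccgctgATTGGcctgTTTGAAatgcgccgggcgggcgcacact
The stretch of Cenpe holds CCAAT and TTTAAA without TTTGAA, and that of Plk1 holds CCAAT and TTTAAA, its TTTGAA match starting just beyond the stretch at position 31. In Bub1b the TTTGAA match starts at position 41 and is likewise outside the stretch. Kif23 holds both TTTGAA, at position 3, and ATTGG, at position -7.

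Total counts per library ranged from 5098927 to 12932928, with uninduced replicate 1 and Control replicate 2 the shallowest. Control replicate 2 nevertheless had counts in the most genes, 30343 against 18560 to 24025 in the other libraries, and the cause was not tested. A member had between 43 counts (Cdc25c in Control replicate 2) and 19045 counts (Mki67 in uninduced replicate 2) in a library. Levels are given as CPM, counts scaled to the library total after TMM adjustment of that total. Rbpj itself stood at 198 and 203 CPM in induced, 28.2 and 29.98 CPM in uninduced and 74.1 and 72.9 CPM in Control libraries. In the uninduced libraries, labelled as lacking RBPJ, its transcript remained at 0.396 times the Control level, and in the induced libraries it was 2.73-fold above Control (edgeR adjusted p = 0.00495 and 0.0175). It was 6.89-fold higher in induced than in uninduced libraries (edgeR adjusted p = 0.000507). The order of the groups follows the labels, but counts over the whole gene do not check which part was deleted or whether protein was made, and induction went past the Control level. Whether the 2 libraries of a group are from separate mice is not stated, and p-values then measure only how far such libraries differ, which may be technical. A pair of libraries stood apart in genes of other cell types. Control replicate 2 held 639 CPM summed over 8 later thymocyte genes, against 24.5 to 149.6 CPM in the other libraries, and uninduced replicate 2 held 747 CPM summed over 7 B-lineage genes, against 7.01 to 40.1 CPM elsewhere. Uninduced replicate 2 also had the highest mitochondrial share of counts, 18.2% against 10.2% to 13.6%. The members' calls and the counts of other mitosis and S phase genes are therefore also given without single libraries where those change them, whereas the counts of cell type markers are given with all 6 only.

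Mitosis genes stood highest in the RBPJ uninduced libraries, with the uninduced mean above both others in 36 of 38 members. In uninduced against Control libraries, 11 of the 38 members rose and none fell, where 2.49% of all genes tested were called higher and 2.93% lower. The 11 were the kinase genes Plk1 and Aurkb, the checkpoint gene Bub1b, the centromere and kinetochore genes Cenpa, Cenpe and Spc24, the spindle gene Hmmr, the cytokinesis genes Kif20a and Anln, and the chromosome genes Top2a and Mki67. Their rises ran from 1.64-fold for Top2a to 2.98-fold for Spc24. A gene was called at an adjusted p under 0.05 in edgeR's quasi-likelihood test, with Benjamini-Hochberg adjustment over all genes tested. Of the 38 fold changes, 37 were above 0, as were 49.0% over all genes. The median log2 fold change of the members was 0.84, a fold of 1.79, beside -0.02 for all genes. In 35 members both uninduced libraries lay above both Control libraries, which held for 22.1% of all genes. Nusap1 and Foxm1 overlapped between the groups, and Kif23 lay lower in both uninduced libraries. At an unadjusted p under 0.05, 28 members were higher and 1 lower, against 10.0% and 8.79% of all genes. DESeq2 called 18 members higher and none lower, against 4.99% and 6.43% of the genes to which it gave an adjusted p.

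**Figure D1:**
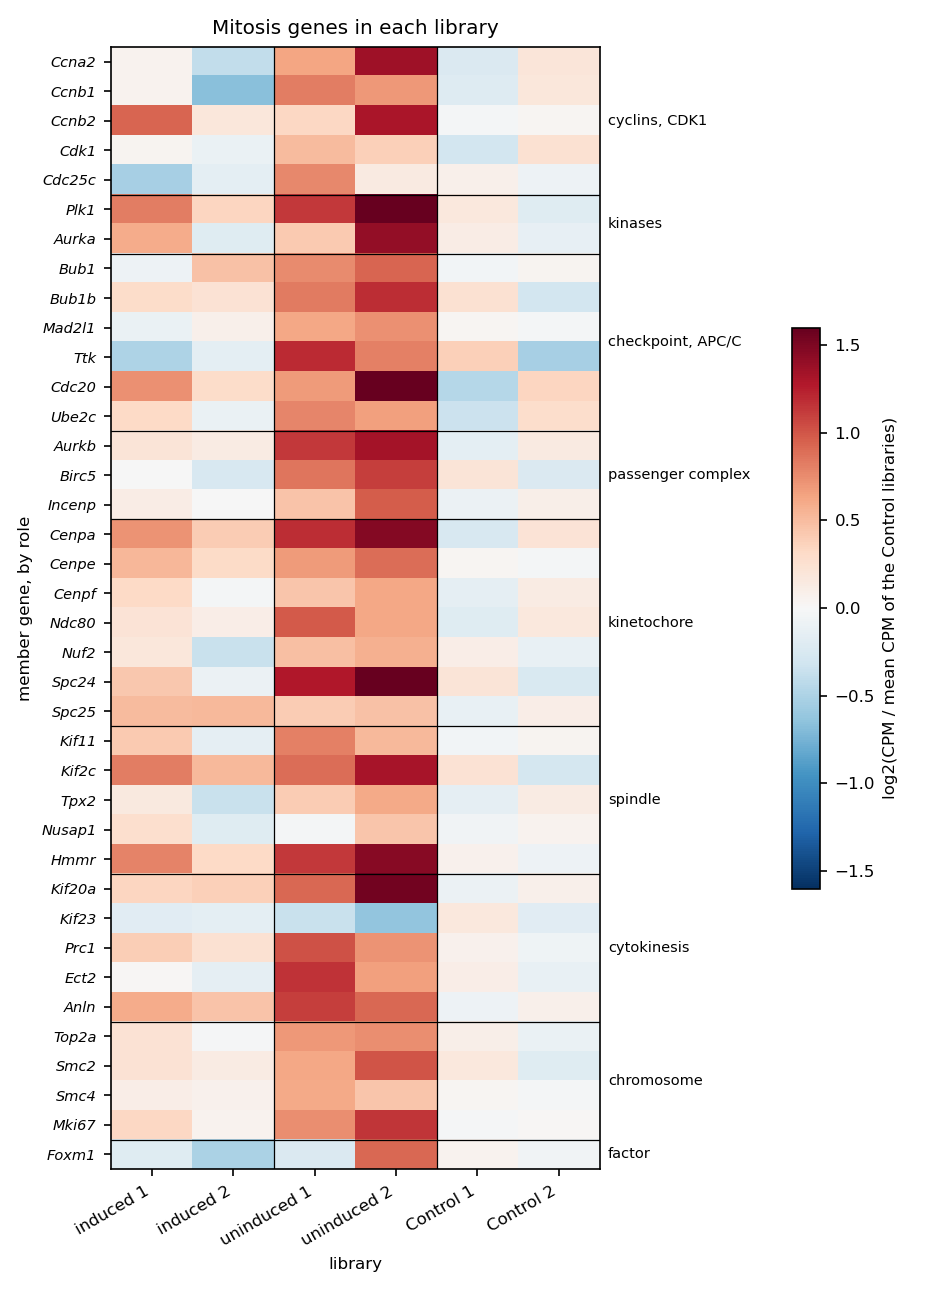
Level of each of the 38 members (rows, by role) in each of the 6 libraries (columns), as log2 of its CPM over the mean CPM of the 2 Control libraries, where red is above and blue below that mean. The uninduced columns are red in nearly every row, with library medians of 0.74 and 0.90, while the induced columns have medians of 0.26 and 0.03 and Kif23 is blue in both uninduced libraries.

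The number of calls between uninduced and Control libraries changed with the libraries in the fit more than the size of the difference did. Without Control replicate 1 no member passed, and without Control replicate 2 only Cenpa did. Without uninduced replicate 1, 17 members passed, 10 of them among the 11, and without uninduced replicate 2, the library with B-lineage transcripts, 8 passed, 5 of them among the 11. The added members were Ccna2, Ccnb2, Cdc20, Aurka, Incenp, Kif2c and Smc2 in the first case and Ect2, Ndc80 and Prc1 in the second. Leaving out either induced library, which belongs to neither group, left 5 calls in each case (Cenpa, Hmmr, Kif20a, Mki67 and Spc24). With only the 4 compared libraries in the fit no member passed, while 26 had an unadjusted p under 0.05. In that fit 93 genes were called higher over all genes tested, against 452 with all 6 libraries. Fewer genes were also called higher without either Control library, and more without either uninduced library. The lost and added calls are therefore not a result about the members alone. Over these fits and all other settings the median of the members stayed between 0.73 and 0.87, and at least 35 of the 38 fold changes were above 0. Settings that scale the libraries differently moved the median of all genes to as low as -0.13. Relative to the median of all genes, the members stood 0.85 higher with TMM and 0.86 higher with library totals alone. That distance was 0.80 with the 4 compared libraries. When each library was left out in turn, it ran from 0.65 (without Control replicate 2) to 1.04 (without uninduced replicate 1).

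**Figure D2:**
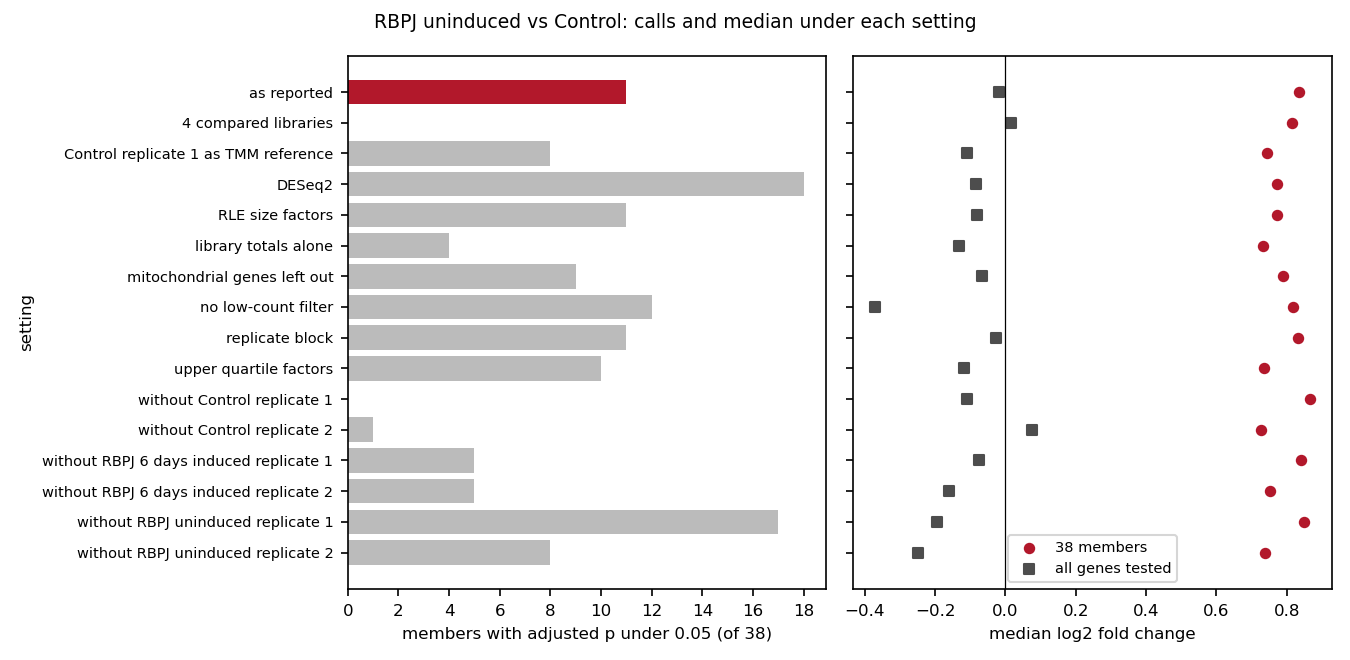
Members called higher (left, bars, of 38) and median log2 fold change of the 38 members (right, circles) and of all genes tested (right, squares) in RBPJ uninduced against Control, for each setting. The calls range from 0 to 18 while the members' median lies between 0.73 and 0.87.

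Most members lay lower after induction, by amounts that edgeR did not separate gene by gene from the spread between libraries. In induced against uninduced libraries no member passed in edgeR, where 1.55% of all genes were called higher and 0.413% lower. Of the 38 fold changes 36 were below 0, and their median was -0.66, a fold of 0.633, beside -0.03 for all genes. At an unadjusted p under 0.05, 22 members were lower and none higher, against 6.93% and 8.51% of all genes. DESeq2 called 13 lower and none higher, against 3.86% and 5.77% of the genes to which it gave an adjusted p. Both induced libraries lay below both uninduced libraries in 31 members and above them in 2, against 21.8% and 24.8% of all genes. The 2 were Kif23 and Spc25, and the 5 overlapping members were Ccnb2, Aurka, Cdc20, Nusap1 and Foxm1. Without uninduced replicate 1, 8 members passed in edgeR (Ccna2, Aurkb, Birc5, Incenp, Spc24, Kif20a, Mki67 and Foxm1), and without uninduced replicate 2, 2 passed (Ect2 and Ttk). In both of these fits more genes were also called lower over all genes tested than with all 6 libraries. The added calls are therefore not a result about the members alone. The members' median was -0.78 without induced replicate 1 and -0.50 without induced replicate 2, and induced replicate 2 had the lower CPM of the pair in 31 of 38 members.

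After 6 days of induction 26 of the 38 members lay above Control and 12 below, mostly by small amounts, where few genes at all were called. In induced against Control libraries edgeR called none of the 38, where it called 0.187% of all genes higher and 0.0% lower. DESeq2 also called none, against 1.24% higher and 0.351% lower of the genes to which it gave an adjusted p. The median log2 fold change was 0.17, beside -0.02 for all genes, with 26 fold changes above 0 and 12 below. At an unadjusted p under 0.05 there were 3 members, Anln, Cenpe and Hmmr, all higher, against 3.63% of all genes higher and 1.55% lower. Both induced libraries lay above both Control libraries in 12 members and below them in 2, Cdc25c and Foxm1, against 20.8% and 16.8% of all genes. In the other 24 members the groups overlapped. The induced mean fell between the uninduced and Control means in 26 members, below both in 11, and above both in Spc25. Such positions of group means, like the 36 members highest in uninduced libraries, were not counted over all genes. A missing call does not show that these levels are equal, since the median standard error of a member's log2 fold change was 0.27. The 3 comparisons share libraries, so a high uninduced value raises the first comparison and lowers the second at once, and their agreement in opposite signs is not independent.

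**Figure D3:**
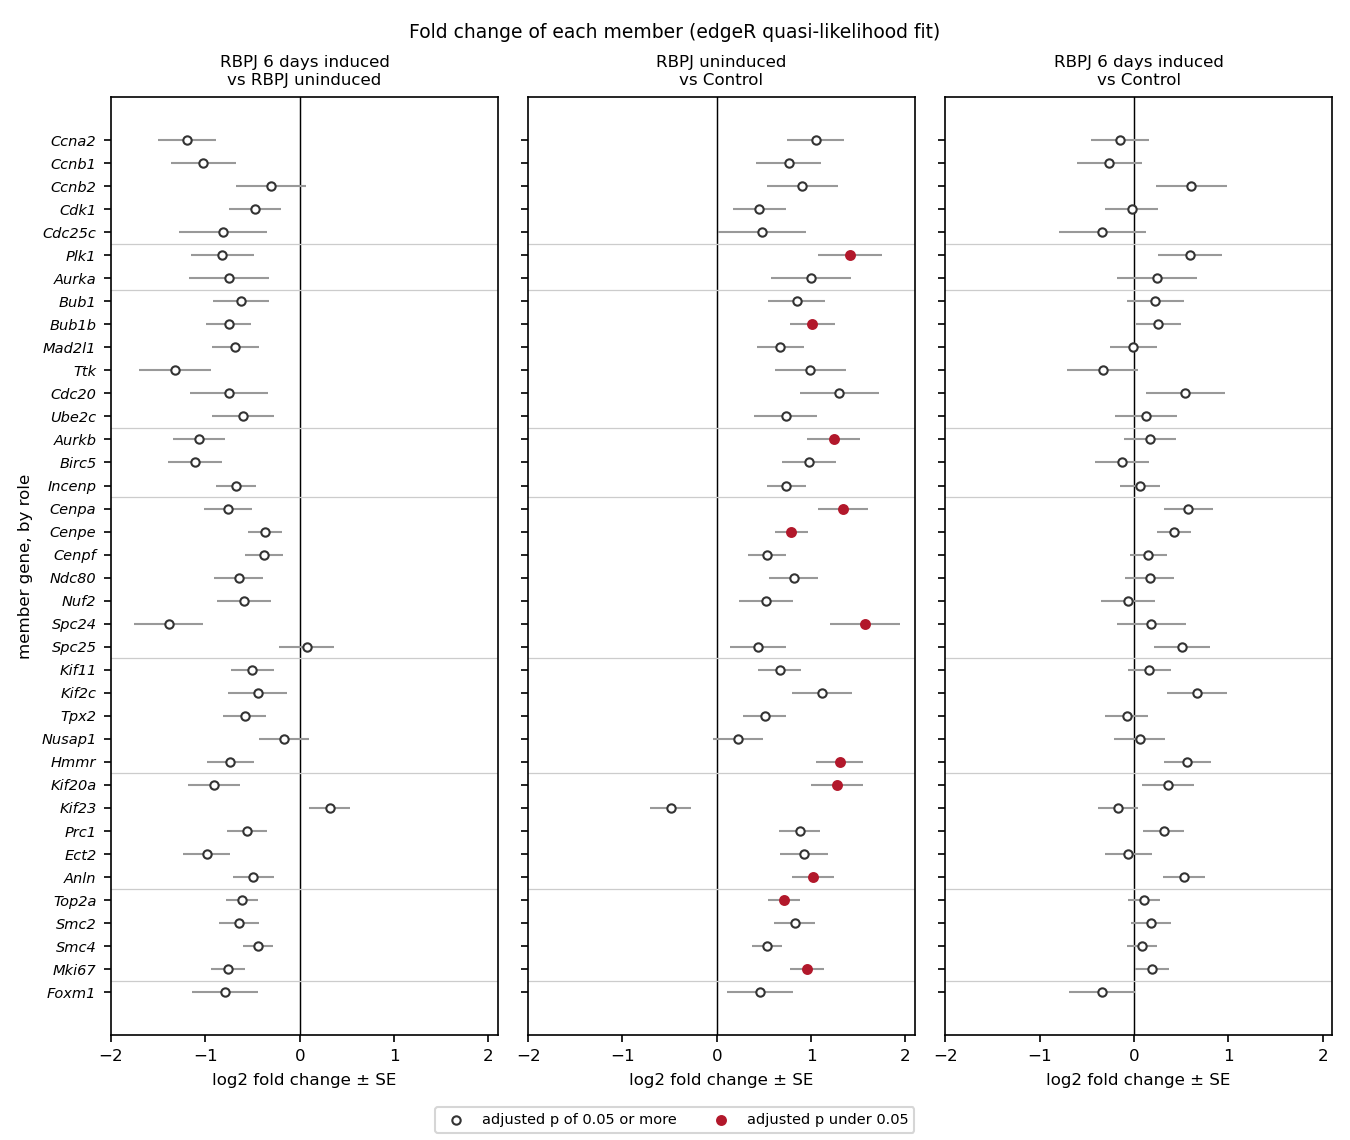
Log2 fold change of each member with its standard error in the 3 comparisons, from the edgeR fit of all 6 libraries, with members in rows by role. Filled points passed an adjusted p under 0.05: 11 in RBPJ uninduced against Control, none in the other comparisons. Kif23 lies left of 0 in the middle panel.

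Bulk counts give the share of a transcript in the RNA of a library, so more cells in mitosis and more transcript per mitotic cell cannot be told apart. Transcripts of other cell types also differed between the groups, and their part in the mitosis results was not tested. For the counts below, 2.49% of all genes were called higher and 2.93% lower in uninduced against Control libraries. On induction the shares were 1.55% higher and 0.413% lower, and in induced against Control libraries 0.187% were higher. Of 7 myeloid genes, 6 tested, 4 rose in uninduced against Control libraries and 1 fell on induction. Their summed level was 733 and 1605 CPM in induced, 4327 and 3241 CPM in uninduced and 569 and 500.4 CPM in Control libraries, with S100a8 at 0 in Control replicate 1 and in both induced libraries. Mpo made up most of that sum, at 604 and 1300 CPM in induced, 3712 and 2718 CPM in uninduced and 495 and 420 CPM in Control libraries. Unlike the other myeloid genes, Csf1r averaged lowest in uninduced libraries, at 26.1 CPM against 47.6 CPM in induced and 31.5 CPM in Control libraries. Of 6 mast cell and basophil genes, 5 tested, 4 rose in uninduced against Control libraries, 1 fell on induction and 1 was higher in induced than in Control libraries. They summed to 169 and 176 CPM in induced, 603 and 382 CPM in uninduced and 74.0 and 52.2 CPM in Control libraries, with Fcer1a at 0 in both Control libraries and in induced replicate 2. Of 7 erythroid genes 4 rose in uninduced against Control libraries and 1 was higher in induced than in Control libraries, and they summed to 148 and 87.1 CPM in induced, 191 and 524 CPM in uninduced and 5.86 and 16.6 CPM in Control libraries. Of these, Hba-a1 was at 0 in Control replicate 1 and induced replicate 2, Car1 in Control replicate 2 and Hbb-bt in uninduced replicate 1. Car1 made up most of the erythroid sum in induced libraries, at 91.1 and 50.6 CPM, and in uninduced libraries, at 110 and 287 CPM. Hbb-bt instead averaged highest in Control libraries, at 3.41 CPM against 1.13 CPM in induced and 0.947 CPM in uninduced libraries. Of the B-lineage genes 1 rose in uninduced against Control libraries, with Ms4a1 at 0 in Control replicate 1 and induced replicate 1 and Pax5 at 0 in induced replicate 1. No later thymocyte gene of 7 tested was called in edgeR, and Ptcra was at 0 in both uninduced libraries. No thymic stromal gene of 5 tested was called either, and they summed to 6.98 and 4.75 CPM in induced, 11.1 and 6.69 CPM in uninduced and 1.52 and 17.2 CPM in Control libraries, with Epcam at 0 in uninduced replicate 1 and Foxn1 and Krt8 at 0 in Control replicate 1. The 6 DN1 genes were detected in every library. Of them 2 fell in uninduced against Control libraries and 1 rose on induction, and they summed to 1907 and 1871 CPM in induced, 1258 and 1256 CPM in uninduced and 1883 and 1627 CPM in Control libraries. Not all went the same way. Kit and Cd24a averaged higher in uninduced than in Control libraries, at 514 and 196 CPM against 443 and 137 CPM, with overlap. Cd44, Flt3, Il7r and Ptprc averaged lower.

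The cyclins, CDK1 and its activating phosphatase lay higher in uninduced libraries as a group, without a call. For this and the role groups below, 22.1% of all genes lay higher without overlap in uninduced against Control libraries, and 2.49% were called higher. On induction 21.8% of all genes lay lower without overlap. All 5 log2 fold changes against Control were above 0 (0.45 to 1.05) with groups that did not overlap, and all 5 were below 0 in induced against uninduced libraries (-1.19 to -0.30), where Ccnb2 overlapped. Ccna2, the A-type cyclin of S phase and G2, was the highest of the group by CPM. It stood at 43.8 and 32.2 CPM in induced, 65.2 and 109 CPM in uninduced and 36.0 and 48.5 CPM in Control libraries. Uninduced replicate 2 was far above replicate 1, and the induced libraries overlapped Control. Its log2 fold change was -1.19 in induced against uninduced libraries (SE 0.30, edgeR adjusted p = 0.092) and 1.05 in uninduced against Control libraries (SE 0.30, edgeR adjusted p = 0.0856). DESeq2 called both, with adjusted p-values of 0.00926 and 0.0417. In edgeR both passed without uninduced replicate 1 (-1.46, adjusted p = 0.00282, and 1.32, adjusted p = 0.00397). Without uninduced replicate 2 they were smaller, at -0.76 (edgeR adjusted p = 0.143) and 0.62 (edgeR adjusted p = 0.221). Reads from Exosc9, which overlaps Ccna2 on the opposite strand, cannot be told apart from its own, because the strand setting of the counting is not given. Ccnb1 and Ccnb2, the B-type cyclins that start mitosis, averaged 16.6 and 33.9 CPM in induced, 33.7 and 41.7 CPM in uninduced and 19.9 and 22.3 CPM in Control libraries. Ccnb2 was nearly as high in induced as in uninduced libraries, with 1 library of each pair well above the other. Cdk1, the kinase itself, had log2 fold changes of -0.47, 0.45 and -0.02 in induced against uninduced, uninduced against Control and induced against Control. Cdc25c, the phosphatase that activates CDK1, was the member with the lowest level per kilobase, 1.30, 2.30 and 1.64 CPM per kb of exon in induced, uninduced and Control libraries, and part of it overlaps Gm3550 on the opposite strand. Its induced libraries, at 5.56 and 7.27 CPM, lay below both Control libraries, at 8.53 and 7.61 CPM, a difference within its standard error (log2 fold change -0.33, SE 0.47).

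Of the mitotic entry kinases, Plk1 rose in uninduced against Control libraries and Aurka missed the threshold. Plk1 (ENSMUSG00000030867, mm10 chromosome 7, 122159439 to 122169873, plus strand), polo-like kinase 1, acts from mitotic entry to cytokinesis. It stood at 24.3 and 17.5 CPM in induced, 30.3 and 43.6 CPM in uninduced and 15.5 and 12.0 CPM in Control libraries. The 3 groups did not overlap, with induced libraries between the others. It rose 2.67-fold in uninduced against Control libraries (log2 fold change 1.42, SE 0.34, edgeR adjusted p = 0.0451). The call was lost without either Control library, either induced library or uninduced replicate 2 (adjusted p = 0.0522 to 0.264). Its log2 fold change in induced against uninduced libraries was -0.82 (edgeR adjusted p = 0.27). Aurka, the Aurora kinase of spindle poles, differed widely between replicates, at 20.4 and 11.8 CPM in induced, 18.1 and 36.0 CPM in uninduced and 14.7 and 12.4 CPM in Control libraries. Uninduced replicate 1 lay below induced replicate 1, and the log2 fold change against Control, 1.00, had a standard error of 0.43.

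The spindle checkpoint genes and the activators of the anaphase promoting complex all lay higher in uninduced than in Control libraries, with 1 call among 6. Log2 fold changes ran from 0.67 for Mad2l1 to 1.30 for Cdc20, and no member's groups overlapped. Over all genes 22.1% lay higher without overlap and 2.49% were called higher. Bub1b (ENSMUSG00000040084, mm10 chromosome 2, 118598211 to 118641591, plus strand), which encodes the checkpoint protein BUBR1, stood at 68.4 and 65.4 CPM in induced, 99.3 and 126 CPM in uninduced and 66.1 and 45.3 CPM in Control libraries. It rose 2.02-fold in uninduced against Control libraries (log2 fold change 1.01, SE 0.24, edgeR adjusted p = 0.0434). The induced libraries overlapped Control, whose replicate 1 was much higher than replicate 2. The call was lost without either Control library, either induced library or uninduced replicate 2 (adjusted p = 0.0507 to 0.288). The kinase gene Bub1, at 18.7 and 27.4 CPM in induced, 33.2 and 37.7 CPM in uninduced and 19.1 and 20.3 CPM in Control libraries, kept its groups apart between uninduced and the others. Ttk, the checkpoint kinase MPS1, had the lowest log2 fold change of this group on induction, -1.32 (SE 0.38, edgeR adjusted p = 0.127), and was chosen for naming after its values were seen. Its adjusted p in DESeq2 was 0.0395, and its Control libraries were 21.6 and 11.5 CPM, the widest Control pair of the list. Mad2l1, the checkpoint protein that binds CDC20, was at nearly the same level in induced as in Control libraries, 28.2 ± 2.54 and 28.4 ± 0.822 CPM (mean ± SD, n = 2 each). Cdc20, the activator that the checkpoint holds back, and Ube2c, the ubiquitin-conjugating enzyme of the anaphase promoting complex, had log2 fold changes against Control of 1.30 and 0.73 in uninduced libraries (edgeR adjusted p = 0.121 and 0.277). Cdc20 overlaps Elovl1, and Ube2c overlaps Tnnc2, on the opposite strand.

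The chromosomal passenger complex corrects faulty attachments at the centromere and then moves to the central spindle. All 3 of its members lay higher in uninduced than in Control libraries without overlap, with 1 call. The shares over all genes were 22.1% and 2.49%. Aurkb (ENSMUSG00000020897, mm10 chromosome 11, 69045647 to 69051664, plus strand), its kinase, stood at 21.3 and 20.1 CPM in induced, 40.5 and 46.3 CPM in uninduced and 16.5 and 20.3 CPM in Control libraries. Both uninduced libraries were far above the rest, and induced and Control libraries overlapped. It rose 2.36-fold in uninduced against Control libraries (log2 fold change 1.24, SE 0.28, edgeR adjusted p = 0.0367), a call lost without either Control or either induced library (adjusted p = 0.0666 to 0.217). Birc5, which encodes survivin, and the scaffold gene Incenp had log2 fold changes of 0.98 and 0.74 (edgeR adjusted p = 0.0888 and 0.0808). Incenp stood at 141 and 129 CPM in induced, 178 and 253 CPM in uninduced and 121 and 138 CPM in Control libraries, again with the uninduced pair apart. On induction all 3 were lower at an unadjusted p under 0.05 and in DESeq2, with log2 fold changes of -1.07 for Aurkb, -1.11 for Birc5 and -0.67 for Incenp, and edgeR adjusted p-values from 0.0958 to 0.153.

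Centromere and kinetochore genes held 3 of the 11 calls and the member with the highest fold change. All 7 lay higher in uninduced than in Control libraries without overlap, as did 22.1% of all genes, of which 2.49% were called higher. Spc24 (ENSMUSG00000074476, mm10 chromosome 9, 21755442 to 21760303, minus strand), a subunit of the microtubule-binding NDC80 complex, stood at 15.01 and 10.4 CPM in induced, 27.1 and 39.5 CPM in uninduced and 12.9 and 9.38 CPM in Control libraries. Its log2 fold change was the highest of the list in uninduced against Control libraries (1.57, SE 0.37, edgeR adjusted p = 0.0426) and the lowest in induced against uninduced libraries (-1.39, SE 0.37, edgeR adjusted p = 0.103). The first call was lost without either Control library or uninduced replicate 2 (adjusted p = 0.0694 to 0.257), and the second difference passed without uninduced replicate 1. For the other subunits of the same complex, none of them called, log2 fold changes against Control were 0.81 for Ndc80, 0.52 for Nuf2 and 0.44 for Spc25. Spc25 was the member in which induced libraries, at 24.2 and 24.3 CPM, lay above both uninduced libraries, at 22.6 and 23.5 CPM, and above Control, at 15.7 and 18.4 CPM. Its differences were within about 1 standard error on induction (log2 fold change 0.07, SE 0.29). Reads of Ndc80 are uncertain, because the pseudogene 2700099C18Rik on chromosome 17 matches it at 95.05% over 303 bases and held 828 counts over all libraries against 2042 for Ndc80.

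Cenpa (ENSMUSG00000029177, mm10 chromosome 5, 30666777 to 30674830, plus strand), the centromeric histone H3 variant, stood at 51.0 and 40.9 CPM in induced, 69.9 and 85.6 CPM in uninduced and 25.8 and 36.1 CPM in Control libraries. The 3 groups were separate, with induced libraries between the others. It rose 2.53-fold in uninduced against Control libraries (log2 fold change 1.34, SE 0.26, edgeR adjusted p = 0.0212). Its call was the one that held most often, being lost without Control replicate 1 (1.14, adjusted p = 0.135) and with the 4 compared libraries alone (1.31, adjusted p = 0.0926). Cenpe (ENSMUSG00000045328, mm10 chromosome 3, 135212537 to 135273611, plus strand), a kinesin that carries chromosomes to the spindle equator, stood at 186 and 159.8 CPM in induced, 207 and 239 CPM in uninduced and 132 and 126 CPM in Control libraries. It rose 1.73-fold in uninduced against Control libraries (log2 fold change 0.79, SE 0.18, edgeR adjusted p = 0.037). That call was lost without either Control library, either induced library or uninduced replicate 2 (adjusted p = 0.0656 to 0.218). In induced against Control libraries Cenpe was at 0.43 (SE 0.18, edgeR adjusted p = 0.893). Cenpf, a large protein of the outer kinetochore, had a smaller log2 fold change of 0.53 in uninduced against Control libraries (edgeR adjusted p = 0.178).

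Among the spindle motors and microtubule proteins Hmmr rose and the other 4 members did not pass. Hmmr (ENSMUSG00000020330, mm10 chromosome 11, 40701395 to 40733422, minus strand), a hyaluronan receptor that also binds spindle microtubules, stood at 60.0 and 43.1 CPM in induced, 76.0 and 95.4 CPM in uninduced and 36.5 and 32.9 CPM in Control libraries. The groups were separate in all 3 comparisons. It rose 2.47-fold in uninduced against Control libraries (log2 fold change 1.30, SE 0.25, edgeR adjusted p = 0.0196), a call lost without either Control library (adjusted p = 0.0736 and 0.124). Kif11, the motor that pushes spindle poles apart, stood at 153 and 103 CPM in induced, 199 and 164 CPM in uninduced and 110.4 and 118 CPM in Control libraries, so the induced pair spanned Control. Its log2 fold change in uninduced against Control libraries was 0.67 (SE 0.23, edgeR adjusted p = 0.138). Kif2c, a kinesin that shortens microtubules at the centromere, had the highest fold change of the list in induced against Control libraries. It stood at 29.7 and 24.1 CPM in induced, 31.1 and 42.0 CPM in uninduced and 19.8 and 13.8 CPM in Control libraries, a log2 fold change of 0.67 (SE 0.32, edgeR adjusted p = 1.0). Without Control replicate 1 or 2 and without either induced library that value ran from 0.40 to 1.01, with no call. Tpx2, which activates Aurora A on the spindle, and Nusap1, which bundles microtubules, had the lowest values of this group in uninduced against Control libraries, 0.51 and 0.22. Nusap1 overlapped in every comparison, at 51.0 and 37.0 CPM in induced, 41.2 and 57.3 CPM in uninduced and 40.7 and 43.9 CPM in Control libraries, and its gene overlaps Oip5 on the opposite strand.

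**Figure D4:**
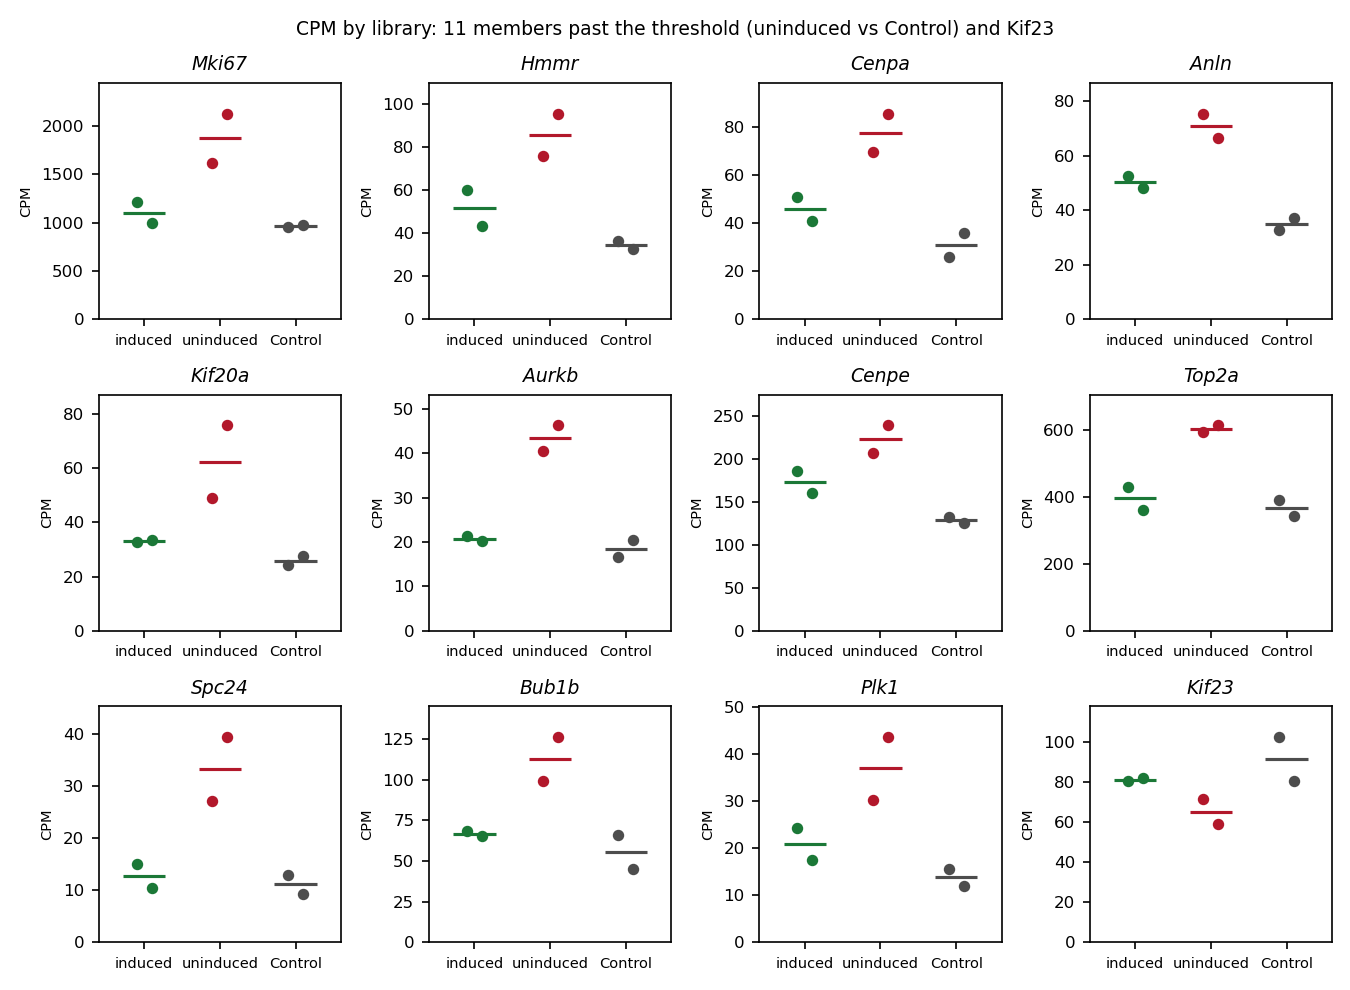
CPM of the 11 members that rose in RBPJ uninduced against Control libraries, and of Kif23, with a point for each library and a line at each group's mean. The uninduced points lie above both Control points in the 11 members and below both in Kif23, whose induced libraries are at 80.6 and 82.2 CPM.

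Of the 5 genes of the central spindle and cytokinesis, 4 lay higher in uninduced than in Control libraries, 2 of them called, and Kif23 lay lower without a call. Kif20a (ENSMUSG00000003779, mm10 chromosome 18, 34624613 to 34633277, plus strand), a kinesin that brings the passenger complex to the central spindle, stood at 32.7 and 33.6 CPM in induced, 48.9 and 75.7 CPM in uninduced and 24.3 and 27.4 CPM in Control libraries. It rose 2.42-fold in uninduced against Control libraries (log2 fold change 1.27, SE 0.28, edgeR adjusted p = 0.0321). The call was lost without either Control library or uninduced replicate 2 (adjusted p = 0.0564 to 0.162), and its gene overlaps Cdc23, a subunit of the anaphase promoting complex, by 2327 bases on the opposite strand. Cdc23 itself had a log2 fold change of 0.61 (edgeR adjusted p = 0.174). Anln (ENSMUSG00000036777, mm10 chromosome 9, 22332012 to 22389188, minus strand), the anillin of the contractile ring, stood at 52.6 and 48.1 CPM in induced, 75.3 and 66.3 CPM in uninduced and 32.9 and 37.0 CPM in Control libraries. It rose 2.03-fold in uninduced against Control libraries (log2 fold change 1.02, SE 0.22, edgeR adjusted p = 0.0318), a call lost without either Control or either induced library (adjusted p = 0.0692 to 0.181). Anln had the smallest p of the list in induced against Control libraries, without passing (log2 fold change 0.53, SE 0.22, edgeR adjusted p = 0.884).

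Ect2, the exchange factor that starts the contractile ring through RhoA, was near the threshold in both comparisons with the uninduced libraries. It stood at 40.1 and 35.9 CPM in induced, 88.5 and 62.3 CPM in uninduced and 42.6 and 36.4 CPM in Control libraries, so induced and Control libraries were at like levels. Its log2 fold change was -0.99 on induction (SE 0.25, edgeR adjusted p = 0.0913) and 0.93 in uninduced against Control libraries (SE 0.25, edgeR adjusted p = 0.0691). Both passed without uninduced replicate 2 (-1.21, edgeR adjusted p = 0.0101, and 1.14, edgeR adjusted p = 0.0106). Without uninduced replicate 1 they were at -0.66 and 0.60 (edgeR adjusted p = 0.204 and 0.243). Prc1, which bundles the central spindle, was just outside the threshold (log2 fold change 0.88, edgeR adjusted p = 0.0509), and its gene lies within a region shared with Rccd1 on the opposite strand. Kif23 (ENSMUSG00000032254, mm10 chromosome 9, 61915905 to 61946774, minus strand), the motor of the centralspindlin complex, was the exception among the 38. It stood at 80.6 and 82.2 CPM in induced, 71.8 and 59.1 CPM in uninduced and 103 and 80.5 CPM in Control libraries. The uninduced libraries were the lowest, below both other groups without overlap. Its log2 fold change was -0.49 in uninduced against Control libraries (SE 0.21, edgeR adjusted p = 0.256) and 0.32 in induced against uninduced libraries (SE 0.21, edgeR adjusted p = 0.534), neither past the threshold. It kept these signs in every setting, from -0.74 to -0.27 and from 0.19 to 0.52 when each library was left out in turn.

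Chromosome structure genes held the 3 highest levels per kilobase of the list, and Mki67 and Top2a rose in uninduced against Control libraries. Mki67 averaged 109.7, 186 and 95.8 CPM per kb of exon in induced, uninduced and Control libraries, ahead of Smc4 at 53.5, 72.8 and 50.4 and Top2a at 43.9, 67.0 and 40.7. Mki67 (ENSMUSG00000031004, mm10 chromosome 7, 135689784 to 135716361, minus strand), which encodes the Ki-67 protein that coats mitotic chromosomes and marks dividing cells, stood at 1208 and 999 CPM in induced, 1619.5 and 2123 CPM in uninduced and 951 and 977 CPM in Control libraries. All 3 groups were separate, with the induced libraries just above Control. On induction it had the lowest adjusted p of the list without passing (log2 fold change -0.76, SE 0.18, edgeR adjusted p = 0.0758). It passed without uninduced replicate 1 (-0.89, adjusted p = 0.0182) and in DESeq2 (adjusted p = 0.000159). In uninduced against Control libraries it rose 1.94-fold (log2 fold change 0.96, SE 0.18, edgeR adjusted p = 0.0196), a call lost without either Control library (adjusted p = 0.0791 and 0.0731). Top2a (ENSMUSG00000020914, mm10 chromosome 11, 98992943 to 99024189, minus strand), the topoisomerase that untangles sister chromatids, stood at 430.3 and 361 CPM in induced, 594 and 614 CPM in uninduced and 392 and 342 CPM in Control libraries. The uninduced pair stood apart, and the induced pair overlapped Control. Its rise was 1.64-fold (log2 fold change 0.72, SE 0.17, edgeR adjusted p = 0.0424), a call lost on leaving out any 1 of the 6 libraries (adjusted p = 0.0668 to 0.282). The condensin subunits Smc2 and Smc4, which compact chromosomes, had log2 fold changes of 0.83 and 0.53 (edgeR adjusted p = 0.059 and 0.1), and DESeq2 called both.

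Foxm1, the transcription factor known to switch on many of these genes in G2, did not follow the group cleanly. It stood at 34.97 and 28.1 CPM in induced, 34.1 and 75.01 CPM in uninduced and 41.3 and 38.4 CPM in Control libraries. Uninduced replicate 1 lay with the induced libraries and below Control, and replicate 2 was far above every other library, the widest uninduced pair of the list. Its log2 fold changes were -0.79 in induced against uninduced, 0.46 in uninduced against Control and -0.34 in induced against Control libraries (SE 0.35 in the first), the last the lowest of the list in that comparison. Without uninduced replicate 1 it was called lower on induction (-1.19, edgeR adjusted p = 0.0119), and without uninduced replicate 2 the value there was -0.10. In uninduced against Control libraries the value turned to -0.24 without uninduced replicate 2 (edgeR adjusted p = 0.661). In induced against Control libraries it ran from -0.48 to -0.20 when each library was left out.

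Other genes of mitosis, 99 from a textbook list of the same pathway, also lay mostly higher in uninduced than in Control libraries. That list too was chosen with earlier results of these data known, so its values are a description and not independent support. In uninduced against Control libraries 10 rose and none fell, where 2.49% of all genes were called higher and 2.93% lower. Of the 99 fold changes 90 were above 0, as were 49.0% over all genes, with a median of 0.51, beside 0.84 for the 38 members and -0.02 for all genes. The 10 included Knl1, the kinetochore scaffold on which BUB1 and BUBR1 sit, at 133 and 117 CPM in induced, 178 and 206 CPM in uninduced and 73.6 and 75.7 CPM in Control libraries (log2 fold change 1.36, edgeR adjusted p = 0.00459). Aspm, a spindle pole protein, was at 1.46 (edgeR adjusted p = 0.00615). Zwilch and Kntc1, of the complex that recruits dynein to kinetochores, were at 1.34 and 1.06 (edgeR adjusted p = 0.0294 and 0.0321). Mybl2, which encodes B-MYB, stood at 31.5 and 27.6 CPM in induced, 78.9 and 96.1 CPM in uninduced and 41.7 and 25.1 CPM in Control libraries. It fell on induction (log2 fold change -1.57, edgeR adjusted p = 0.03) and rose in uninduced against Control libraries (1.38, edgeR adjusted p = 0.0259). Ckap2, a microtubule-associated protein, was the other that fell on induction (-1.44, edgeR adjusted p = 0.0403). It also rose in uninduced against Control libraries (1.35, edgeR adjusted p = 0.0294). The remaining rises were Ncapg of condensin, Kif15, Cdc25b and Tfdp1. The calls of Knl1 and Aspm held whichever library was left out. The rises of Kif15 and Mybl2 were lost without Control replicate 2, and the other 6 without either Control library. Those of Ckap2, Ncapg, Cdc25b and Tfdp1 were also lost without either induced library, and that of Kntc1 without induced replicate 2. On induction the falls of Mybl2 and Ckap2 were lost without either induced library, and that of Ckap2 also without either Control library. The 17 genes for subunits and regulators of the anaphase promoting complex, among them its activator CDH1 (Fzr1), its inhibitor EMI1 (Fbxo5) and its enzyme Ube2s, had no call and a median of 0.16, with 4 below 0. Cohesin, separase and securin genes had no call among 13 and a median of 0.28. With 2.49% of all genes called higher, lists this short can hold no call without differing from all genes. Both uninduced libraries lay above both Control libraries in 7 of the 17 and 8 of the 13, against 22.1% of all genes. They lay below in 0 and 2, against 22.2%. DESeq2 called 0 of the 17 and 2 of the 13 higher, against 4.99% of the genes to which it gave an adjusted p. Without single libraries the rises among the 99 numbered 2 (without Control replicate 2) to 18 (without uninduced replicate 1), 4 without Control replicate 1. In induced against Control libraries edgeR called none of the 99. DESeq2 called Knl1, and the count at an unadjusted p under 0.05 was 3 higher and 1 lower, against 3.63% and 1.55% of all genes.

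Genes of S phase, which precedes mitosis, also stood highest in uninduced libraries, in a list likewise chosen with earlier results of these data known. Of 20 S phase genes, 9 rose in uninduced against Control libraries and 7 fell in induced against uninduced libraries, with medians of 0.80 and -0.95, where 2.49% of all genes were called higher in the first comparison and 0.413% lower in the second. No S phase gene rose without either Control library, and 4 did without either induced library. No S phase gene fell without either induced library, and 10 did without uninduced replicate 1. Among them Rrm2, a subunit of ribonucleotide reductase, had log2 fold changes of -1.63 on induction and 1.19 against Control (edgeR adjusted p = 0.0161 and 0.0289), the first call lost without either induced and the second without either Control library. In induced against Control libraries none passed in edgeR or DESeq2 and none had an unadjusted p under 0.05, with a median of -0.08, beside 0.17 for the 38 mitosis members. Whether the mitosis and S phase lists differ was not tested. Library by library, the median log2 level relative to Control was 0.26 and 0.03 in induced and 0.74 and 0.90 in uninduced libraries for the mitosis members, and -0.10 and -0.14 in induced and 0.79 and 0.76 in uninduced libraries for the S phase genes.

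**Figure D5:**
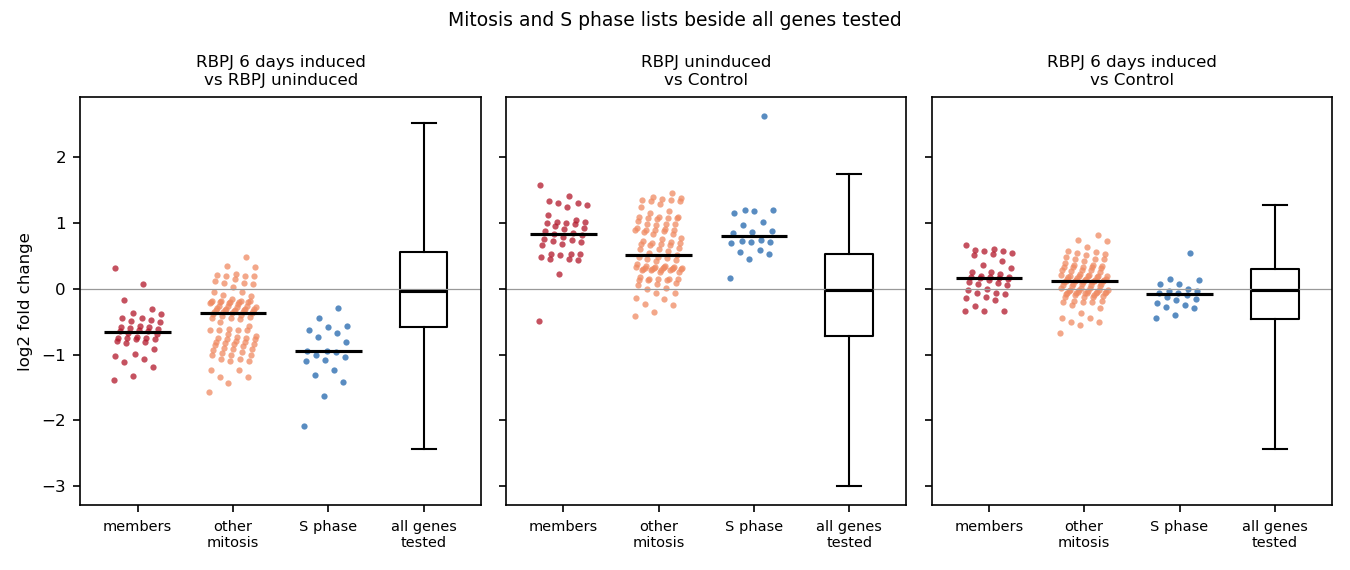
Log2 fold changes of the 38 members, 99 other mitosis genes and 20 S phase genes (a point per gene, a line at the median) beside all 18174 genes tested (box of quartiles with whiskers from the 5th to the 95th percentile) in the 3 comparisons. The members' medians are -0.66, 0.84 and 0.17 from left to right, with all genes near 0.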

How the data were processed

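RNA was measured in 6 libraries of FACS-sorted thymus DN1a/b cells, 2 per group, grouped and numbered by the sample titles. The deposited files hold whole-number read counts per Ensembl gene, 1 file per library, without normalization. Per the submitters' processing notes, the tools were HISAT2, StringTie and HTSeq and the build was mm10. No version or role of a tool, and no strand setting, is stated there. Names and positions came from GENCODE on GRCm38, where 47310 of 47729 gene IDs matched.

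The deposited counts were analysed in edgeR 4.0.16 (R 4.3.3). The filter filterByExpr with its default minimum count of 10 and minimum total of 15 left 18174 genes, libraries were scaled by TMM (factors 0.824 to 1.13), and all 6 entered 1 quasi-likelihood fit with 3 residual degrees of freedom. P-values were adjusted by Benjamini-Hochberg over all 18174 genes, with a threshold of 0.05. CPM are edgeR values on the scaled totals, and CPM per kb divides them by the union of exons. Alternatives were DESeq2 1.42.0, other size factors and TMM references, no filter, mitochondrial genes left out, a fit of only the 4 libraries in a comparison, a block for replicate number, and each library left out in turn. The fit was tested on simulated data with 2 libraries a group. There it missed most of the smallest changes and many of the larger ones, and made more false calls than the threshold names. Calls near the threshold and missing calls both carry that limit.

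The 38 members and the other lists were chosen with earlier results of these data known. Values in every library are given, in each comparison, for the called members of smallest p, at most 8 (where none was called, at most 3), for the highest and lowest fold change, for the member of each role with the highest CPM, and for Mki67, Top2a and Foxm1. Others with library values, such as Aurka, Bub1, Nusap1, Spc25, Cdc25c and Ttk, were chosen after their values were seen. No gene set was tested. The level of 1 marker gene is not reported here.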

Additional observations from a re-analysis of the deposited data

How the results depend on the processing

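Between RBPJ uninduced and Control libraries, the count of members called higher was 11 as reported, 18 in DESeq2, 4 with library totals alone, 0 with the 4 compared libraries and 0 to 17 when each library was left out in turn. The other mitosis genes, 10 as reported, numbered 20 in DESeq2, 3 with library totals alone, 2 with the 4 compared libraries, 17 without the low-count filter and 2 to 18 when each library was left out, with 0 to 1 lower. On induction, members called lower numbered 0 as reported, 13 in DESeq2, 3 without the low-count filter, 1 with upper quartile factors and 0 to 8 when each library was left out, and their median log2 fold change, -0.66 as reported, ran from -0.78 to -0.50. The other mitosis genes lower on induction, 2 as reported, numbered 17 in DESeq2, 4 each with RLE size factors, upper quartile factors and no low-count filter, 1 with library totals alone, 0 with the 4 compared libraries and 0 to 11 when each library was left out, with 0 to 1 higher. In RBPJ 6 days induced against Control, DESeq2 called 1 other mitosis gene higher, against 0 as reported. The causes of these changes were not tested. Counts over all genes changed with the setting too. In uninduced against Control libraries 452 genes were higher as reported, 802 in DESeq2, 284 with library totals alone and 93 with the 4 compared libraries. On induction 75 were lower as reported, 497 in DESeq2, 314 without the low-count filter and 113 with upper quartile factors. Without the low-count filter the median of all genes was -0.37 in uninduced against Control libraries, and the members stood 1.19 above it. S phase genes higher in uninduced against Control libraries, 9 as reported, numbered 0 with the 4 compared libraries, 4 with library totals alone and 0 to 8 when each library was left out. Those lower on induction, 7 as reported, numbered 13 in DESeq2, 3 with library totals alone, 0 with the 4 compared libraries and 0 to 10 when each library was left out. Over all settings, 2 members changed sign in uninduced against Control libraries, Foxm1 (-0.24 to 0.86 when each library was left out) and Nusap1 (-0.049 to 0.39), both below 0 without uninduced replicate 2 alone. On induction 2 did, Ccnb2 (0.10 and 0.28) and Nusap1 (0.12 and 0.11), each without induced replicate 2 and without uninduced replicate 2. In induced against Control libraries, where the differences were small, 21 of the 38 changed sign in at least 1 setting. None of these passed the threshold on either side.

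The replicate numbers share no stated mouse, batch or day, and same-numbered libraries did not deviate together (correlations from -0.0407 to 0.0253). With the replicate number as a block, 11 members were higher in uninduced against Control libraries, 0 passed on induction and 0 passed in induced against Control libraries. A TMM reference of Control replicate 1, chosen after seeing the data, gave 8 calls in the first comparison. With 2 libraries a group the estimate of spread is imprecise, replicates differed more in the uninduced group (chi-square per degree of freedom 56.7) than in the induced (17.4) and Control groups (20.3), and a missing call does not show equal levels.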
